A study of Mus musculus with 3 samples.

Results

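Toll-like receptors are membrane receptors for microbial and endogenous ligands, and 10 genes of this system were examined in the mouse hippocampus: the receptors Tlr1, Tlr2, Tlr3, Tlr4, Tlr7, Tlr9 and Tlr13, the adaptor Myd88, and the co-receptors Cd14 and Ly96. They were taken by gene name from a table of 54532 genes, and all 10 were found. RNA-seq had been run on the hippocampus of C57BL/6 mice aged 10 months, with 1 library for each of 3 genotypes: WT (wild type), PS19 (carrying a human mutant tau transgene under the mouse Prnp promoter) and PS19, Zbp1+- (the same transgene with 1 Zbp1 allele lost, written PS19 Zbp1+/- here). Zbp1 encodes a sensor of left-handed nucleic acid, and the design asks what its dosage does to the PS19 hippocampus. The labels give neither the sex of the mice nor whether animals were pooled. With 1 library per genotype no difference has a replicate check, no p-value is given, and intervals cover counting error only.

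Toll-like receptors have a leucine-rich ligand-binding part and an intracellular TIR domain that recruits adaptors. Those on the cell surface bind lipoproteins and lipopolysaccharide, and those in endosomes bind nucleic acids. MyD88 is the adaptor of nearly all of them, TLR3 signalling instead through TRIF (gene Ticam1), and the pathway ends in NF-kB and interferon regulatory factors. In the brain, microglia hold most of these receptors, while TLR3 is also found in astrocytes and neurons.

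Levels are given as FPKM (fragments scaled to gene length and library size, as deposited) and as whole reads recovered from the FPKM values. A read ratio divides the reads of 2 libraries after scaling by the library size that the FPKM values imply. Its 95% interval is exact (Clopper-Pearson). The ratio compares 2 libraries and not the genotypes. Where 3 values stand together they follow the order WT, PS19, PS19 Zbp1+/-. A gene counted as at least 2-fold higher or lower by either of 2 call rules. The first used the difference of log2(FPKM + 1) and took in protein-coding genes whose FPKM reached 1 in one library or the other. The second used the read ratio, with reads set to at least 3, over protein-coding genes with at least 20 reads in the 2 libraries together.

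The libraries held 16400328 to 17109734 recovered reads. The library sizes implied by the FPKM values were 17253479, 17287957 and 15826984. They lie above the recovered reads in WT and PS19 and below them in PS19 Zbp1+/-. Zbp1 itself had 5, 91 and 0 reads, which do not settle the genotype of the last library. That library also stood apart in other respects. Xist, transcribed from the inactive X chromosome, had 11062, 13350 and 0 reads, and the Y-linked Ddx3y had 0, 0 and 711. By these 2 genes the PS19 Zbp1+/- library was male and the WT and PS19 libraries female. Sex and genotype therefore cannot be told apart in any comparison with PS19 Zbp1+/-. The summed FPKM of 8 choroid plexus markers was 3152, 1922 and 11.8. All 8 neuronal markers were present in each library, with summed FPKM values of 1037, 950 and 1321. Weakly expressed genes were lost more often from PS19 Zbp1+/-. Among 864 protein-coding genes whose WT and PS19 counts both lay at 20 to 60, 119 had 8 reads or fewer there, which is 13.8% (95% interval 11.5% to 16.3%, Clopper-Pearson). The same share, taken for each other library against its remaining pair, was 1.94% for WT (1.01% to 3.37%) and 0.937% for PS19 (0.378% to 1.92%). Tlr2 and Tlr7 had 5 and 8 reads in that library but 197 and 239 in PS19, so they are not among the 864 genes. The part of this loss in the low values of any of the 10 genes was not tested.

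The sequences in front of the genes are shown first for 3 receptors that stood far apart in PS19 Zbp1+/-: Tlr2, the receptor with the lowest read ratio to PS19, and Tlr1 and Tlr9, the receptors with the highest. RefSeq promoters (GRCm38.p6, 250 bases before to 50 after the annotated start) were at hand for 6 of the 10 genes. Tlr4, Tlr7, Cd14 and Ly96 were not among them. Each line runs 5′ to 3′ on the gene's own strand. Capitals mark matches, on either strand, to the NF-kB consensus in Tlr2 and to the PU.1-type motif GAGGAAGT in Tlr1 and Tlr9. PU.1 is the macrophage lineage factor.
Tlr2 (chr3:83841559-83841858, minus strand): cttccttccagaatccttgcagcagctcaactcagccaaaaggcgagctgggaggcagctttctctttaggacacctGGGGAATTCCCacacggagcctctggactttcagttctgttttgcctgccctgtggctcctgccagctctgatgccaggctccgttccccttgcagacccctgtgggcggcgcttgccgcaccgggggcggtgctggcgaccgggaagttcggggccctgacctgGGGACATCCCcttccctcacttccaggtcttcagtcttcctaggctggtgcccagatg
Tlr1 (chr5:64933509-64933808, minus strand, the first of 2 annotated starts): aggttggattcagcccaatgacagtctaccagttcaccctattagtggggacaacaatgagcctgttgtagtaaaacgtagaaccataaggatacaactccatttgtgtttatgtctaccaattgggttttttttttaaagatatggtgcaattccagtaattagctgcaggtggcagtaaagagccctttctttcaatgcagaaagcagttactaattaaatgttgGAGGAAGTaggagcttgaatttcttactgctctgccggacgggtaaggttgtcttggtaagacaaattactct
Tlr9 (chr9:106222348-106222647, plus strand): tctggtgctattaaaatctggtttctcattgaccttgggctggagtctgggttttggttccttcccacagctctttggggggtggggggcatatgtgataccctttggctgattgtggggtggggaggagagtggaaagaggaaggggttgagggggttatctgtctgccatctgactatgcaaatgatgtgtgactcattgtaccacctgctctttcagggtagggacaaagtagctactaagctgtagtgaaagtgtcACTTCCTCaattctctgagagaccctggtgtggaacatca

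The Tlr2 window held 3 NF-kB matches, of which 2 overlap at bases 78 to 88 and 1 lies at bases 243 to 252, and no PU.1-type match. The Tlr1 and Tlr9 windows each held 1 PU.1-type match, at bases 228 to 235 and, on the opposite strand, 261 to 268, and no NF-kB match. Of the 32851 promoter windows in the table, all of this length, 4.51% held the NF-kB consensus and 3.2% held GAGGAAGT. Among the other windows, Tlr3 held 1 NF-kB match, Myd88 held the interferon-response-like motif GAAANNGAA (present in 8.56% of windows), and Tlr13 and the other Tlr1 start held none of these 3 motifs. A match describes these letters and does not show a bound site.

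In PS19 all 10 genes had a higher level than in WT. By read ratio 8 of the 10 were at least 2-fold higher, against 6.02% of 14646 protein-coding genes. By log2(FPKM + 1), 7 of the 10 reached an FPKM of 1 and 4 of these (Cd14, Tlr2, Tlr7 and Tlr9) were at least 2-fold higher, against 2.2% of 12703 genes. Tlr2, Tlr7, Tlr9 and Tlr13 reached an FPKM of 1 only in PS19, the library where they were high. Tlr1, Tlr4 and Tlr9, with 1, 17 and 14 reads in WT, passed the read minimum through PS19. Both counts and the median read ratio are thus a description. The median log2 read ratio of the 10 was 1.97, from 0.51 for Myd88 to 4.06 for Tlr1, beside -0.01 over all genes tested. Summed over the 10, WT held 500 reads and PS19 1546, which gives a ratio of 3.09 (2.79 to 3.42). Each of the 8 genes was higher in PS19 under all 4 scalings tried.

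In PS19 Zbp1+/- the set separated. By read ratio 7 of the 10 stood 2-fold or more below PS19, against 12.6% of 14525 genes, and none was 2-fold higher. By log2(FPKM + 1), 4 of 9 did so (Cd14, Myd88, Tlr2 and Tlr7), against 5.16% of 12772. Of these 4, Myd88, Tlr2 and Tlr7 reached an FPKM of 1 only in PS19, the library where they were high. Tlr2, Tlr4 and Tlr7 also passed the read minimum through PS19, so these counts are a description. The 3 genes outside the 7 were Tlr1, Tlr9 and Ly96. The median log2 read ratio was -1.64, beside 0.02 over all genes, and ranged from -5.17 for Tlr2 to 0.50 for Ly96. This comparison shares the PS19 library with the one above, so a high value in PS19 enters both.

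Set against WT, PS19 Zbp1+/- had 439 reads over the 10 genes, a ratio of 0.957 (0.84 to 1.09). Within that sum, 3 genes were at least 2-fold higher than in WT by read ratio (Tlr1, Tlr9 and Ly96), against 3.5% of 14352 genes, and 3 were lower by as much (Tlr2, Tlr7 and Myd88), against 7.27%. Tlr1, Tlr9 and Ly96 passed the read minimum through PS19 Zbp1+/-, and Tlr2 and Tlr7 through WT, so these counts are a description. By log2(FPKM + 1) none of the 5 genes tested was called in either direction, against 1.07% of 12436 genes higher and 2.28% lower. Tlr3, Tlr4, Tlr13 and Cd14 lay within 2-fold of WT.

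**Figure D1:**
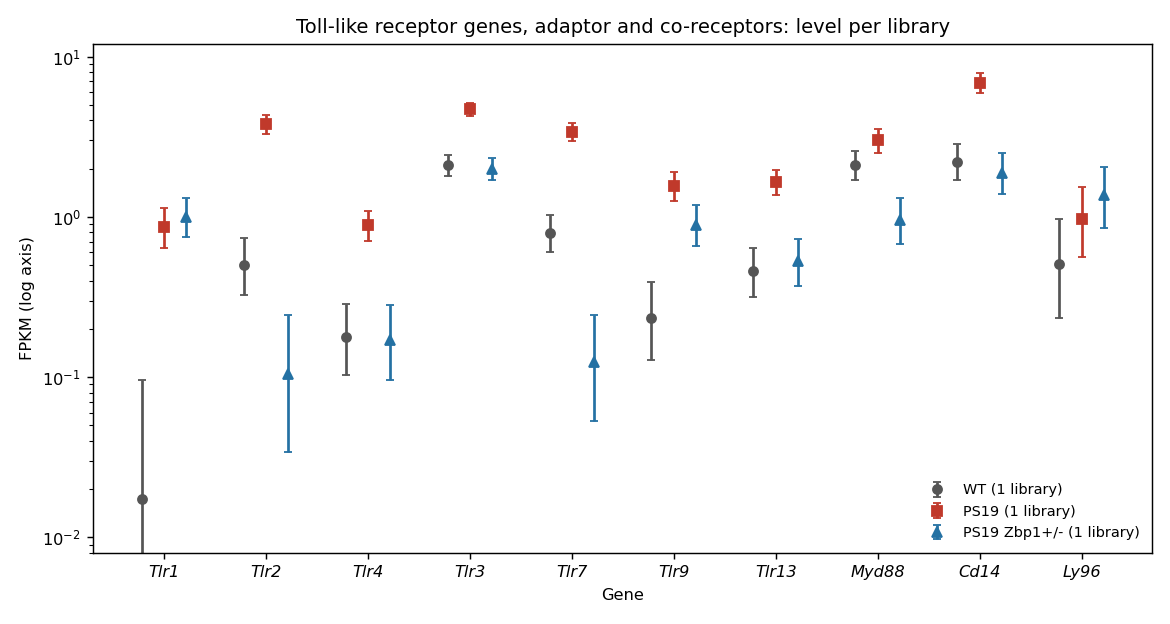
FPKM (log axis) of the 10 genes in WT (grey circles), PS19 (red squares) and PS19 Zbp1+/- (blue triangles), 1 library each; bars are exact 95% Poisson counting intervals, and the lower end for Tlr1 in WT runs off the axis. Tlr2 and Tlr7 are lowest in PS19 Zbp1+/-, while Tlr1 sits at 0.864 in PS19 and 1 in PS19 Zbp1+/- above 0.0173 in WT.

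Among the cell-surface receptors, Tlr2 recognises lipoproteins as a partner of TLR1 or TLR6. For Tlr2 (ENSMUSG00000027995; GRCm38 chromosome 3, 83836272 to 83841767) the WT library held 26 reads, the PS19 library 197 and the PS19 Zbp1+/- library 5. Its FPKM was 0.5, 3.78 and 0.105. PS19 was the high library and PS19 Zbp1+/- the low one, with counting intervals that do not overlap. The PS19 to WT ratio was 7.56 (5.01 to 11.9), the PS19 Zbp1+/- to PS19 ratio 0.0277 (0.0089 to 0.0658) and the PS19 Zbp1+/- to WT ratio 0.21 (0.0629 to 0.555).

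Tlr1, the partner of TLR2 for triacylated lipopeptides, had another pattern. For Tlr1 (ENSMUSG00000044827; chromosome 5, 64924679 to 64933563) the WT library held 1 read, the PS19 library 50 and the PS19 Zbp1+/- library 53. Its FPKM was 0.0173, 0.864 and 1. WT was the low library, and the others overlapped. The ratio to WT was 49.9 (8.55 to 2010) for PS19 and 57.8 (9.93 to 2325) for PS19 Zbp1+/-, wide because WT had a single read. The ratio between PS19 Zbp1+/- and PS19 was 1.16 (0.772 to 1.74), and 0.95 after scaling each library to the same sum (TPM). Of 259 protein-coding genes whose counts in PS19 and PS19 Zbp1+/- both lay at 40 to 70, Tlr1 was the only 1 with a read count of 1 or 0 in WT. This window was set around the counts of Tlr1 itself, so the result is a description. The same count, taken for each other library against its remaining pair, was 0 of 299 for PS19 and 7 of 403 for PS19 Zbp1+/-.

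Tlr6 lies next to Tlr1 on chromosome 5 and encodes the other partner of TLR2. The transcripts of both genes align over 1076 bases at 94.9% identity, so the split of reads between them is uncertain. Tlr6 had 5, 17 and 18 reads. The pair together had 6, 67 and 71 reads, with ratios to WT of 11.1 (4.86 to 31.4) for PS19 and 12.9 (5.64 to 36.3) for PS19 Zbp1+/-. Tlr2 and its partners thus had opposite orders between WT and PS19 Zbp1+/-, and their intervals do not overlap.

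Tlr4 is the lipopolysaccharide receptor. For Tlr4 (ENSMUSG00000039005; chromosome 4, 66827584 to 66930284) the WT library held 17 reads, the PS19 library 85 and the PS19 Zbp1+/- library 15. Its FPKM was 0.177, 0.885 and 0.171. PS19 alone was high. The PS19 to WT ratio was 4.99 (2.94 to 8.96), and PS19 Zbp1+/- to PS19 was 0.193 (0.103 to 0.336). Between PS19 Zbp1+/- and WT the ratio was 0.962 (0.447 to 2.05), an interval that reaches past 2-fold on either side.

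The co-receptors that hand lipopolysaccharide to TLR4 differed from each other. Cd14, a lipid-anchored protein that binds lipopolysaccharide, had 60, 186 and 47 reads and FPKM values of 2.21, 6.84 and 1.89 (ENSMUSG00000051439; chromosome 18, 36725074 to 36726736). Only PS19 was apart, 3.09-fold above WT (2.3 to 4.21), with PS19 Zbp1+/- at 0.276 of PS19 (0.196 to 0.382). Ly96 encodes MD-2, the lipopolysaccharide-binding subunit of the TLR4 complex. It had 9, 17 and 22 reads, or FPKM values of 0.511, 0.963 and 1.36 (ENSMUSG00000025779; chromosome 1, 16688051 to 16709611). Ly96 was the least sampled of the 10 genes, with 48 reads in all. Neither its PS19 to WT ratio of 1.89 (0.795 to 4.8) nor its PS19 Zbp1+/- to PS19 ratio of 1.41 (0.717 to 2.84) differed from 1 beyond counting error. The PS19 Zbp1+/- to WT ratio was 2.66 (1.18 to 6.57).

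Among the endosomal receptors, Tlr3, which binds double-stranded RNA, had the highest FPKM of any receptor in each library. For Tlr3 (ENSMUSG00000031639; chromosome 8, 45395665 to 45411080) the WT library held 189 reads, the PS19 library 422 and the PS19 Zbp1+/- library 165. Its FPKM was 2.1, 4.69 and 2. WT and PS19 Zbp1+/- overlapped and PS19 stood above both. The PS19 to WT ratio was 2.23 (1.87 to 2.66), whose lower bound is under 2-fold, PS19 Zbp1+/- to PS19 was 0.427 (0.355 to 0.512), and PS19 Zbp1+/- to WT was 0.952 (0.768 to 1.18).

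Tlr7 encodes the receptor for single-stranded RNA. For Tlr7 (ENSMUSG00000044583; chromosome X, 167304929 to 167330558) the WT library held 56 reads, the PS19 library 239 and the PS19 Zbp1+/- library 8. Its FPKM was 0.795, 3.39 and 0.124. Like Tlr2, it was high in PS19 and low in PS19 Zbp1+/-, with 3 intervals that do not overlap. The ratios were 4.26 (3.17 to 5.81) for PS19 to WT, 0.0366 (0.0156 to 0.0732) for PS19 Zbp1+/- to PS19 and 0.156 (0.0641 to 0.328) for PS19 Zbp1+/- to WT.

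Tlr13, a receptor for bacterial ribosomal RNA that mice have and humans lack, is also X-linked. Tlr13 (ENSMUSG00000033777; chromosome X, 106143204 to 106160493) had 34, 122 and 36 reads, or FPKM values of 0.458, 1.64 and 0.528. PS19 stood 3.58-fold above WT (2.43 to 5.4), and PS19 Zbp1+/- was at 1.15 of WT (0.702 to 1.9). The libraries differ in Xist and Ddx3y, and so in sex, as given above. The part of sex in the values of these X-linked receptors, or of the other genes, was not tested. Over 497 X-linked protein-coding genes the median log2 read ratio of PS19 Zbp1+/- to WT was -0.08. Of these, 42 were at least 2-fold lower and 20 higher, beside 7.27% lower and 3.5% higher over all genes.

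Tlr9, the receptor for unmethylated CpG DNA, lay between these patterns. For Tlr9 (ENSMUSG00000045322; chromosome 9, 106222598 to 106226883) the WT library held 14 reads, the PS19 library 94 and the PS19 Zbp1+/- library 49. Its FPKM was 0.233, 1.56 and 0.89. The order was PS19, then PS19 Zbp1+/-, then WT, and no interval overlapped its neighbour. The PS19 to WT ratio was 6.7 (3.8 to 12.7) and the PS19 Zbp1+/- to WT ratio 3.82 (2.07 to 7.48). PS19 Zbp1+/- was at 0.569 of PS19 (0.395 to 0.813), and at 0.467 after scaling to TPM, past the 2-fold line.

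Myd88, the shared adaptor, had the smallest PS19 to WT ratio of the 10. For Myd88 (ENSMUSG00000032508; chromosome 9, 119335934 to 119341411) the WT library held 94 reads, the PS19 library 134 and the PS19 Zbp1+/- library 39. Its FPKM was 2.11, 3.01 and 0.957. PS19 Zbp1+/- was the low library. The PS19 to WT ratio was 1.42 (1.08 to 1.87), the PS19 Zbp1+/- to PS19 ratio 0.318 (0.217 to 0.457) and the PS19 Zbp1+/- to WT ratio 0.452 (0.303 to 0.664). The gene overlaps Acaa1a on the opposite strand by 1736 bases, and Acaa1a was expressed at FPKM values of 21.7, 19.5 and 13.7. Whether reads were counted by strand is not given in the sources used here, so part of the Myd88 count could belong to Acaa1a or the reverse.

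**Figure D2:**
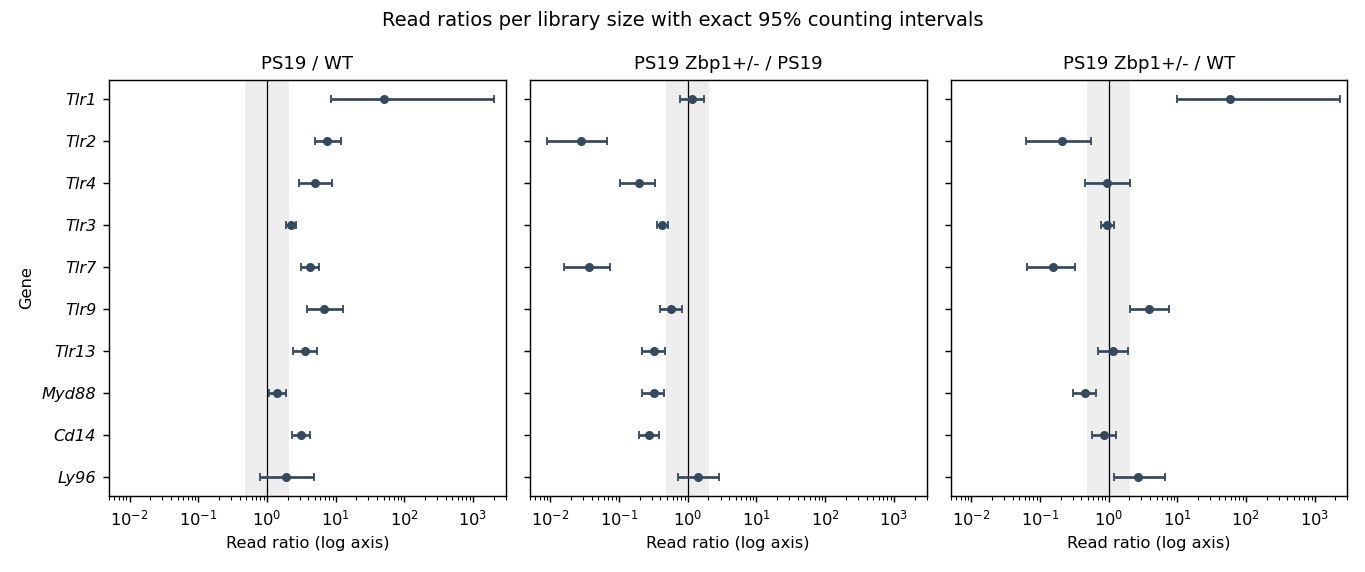
Read ratios per library size (log axis) for the 10 genes in the 3 comparisons, 1 library per genotype; points are ratios, bars exact 95% counting intervals, and the grey band is within 2-fold. Against WT, PS19 Zbp1+/- ranges from 0.156 for Tlr7 to 57.8 for Tlr1.

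The make-up of the receptor set differed between WT and PS19 Zbp1+/- although their sums were alike. Added over the 7 receptors, FPKM came to 4.28, 16.8 and 4.82. Tlr3 made up 49.1%, 27.9% and 41.5% of these sums. Tlr2 and Tlr7 together went from the places behind Tlr3 to the last places: Tlr2 held 11.7%, 22.5% and 2.17%, and Tlr7 held 18.6%, 20.1% and 2.57%. Tlr1 held 0.404%, 5.14% and 20.8%, and Tlr9 held 5.45%, 9.3% and 18.5%. Tlr13, at 10.7%, 9.76% and 11%, and Tlr4, at 4.14%, 5.27% and 3.54%, kept similar shares.

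**Figure D3:**
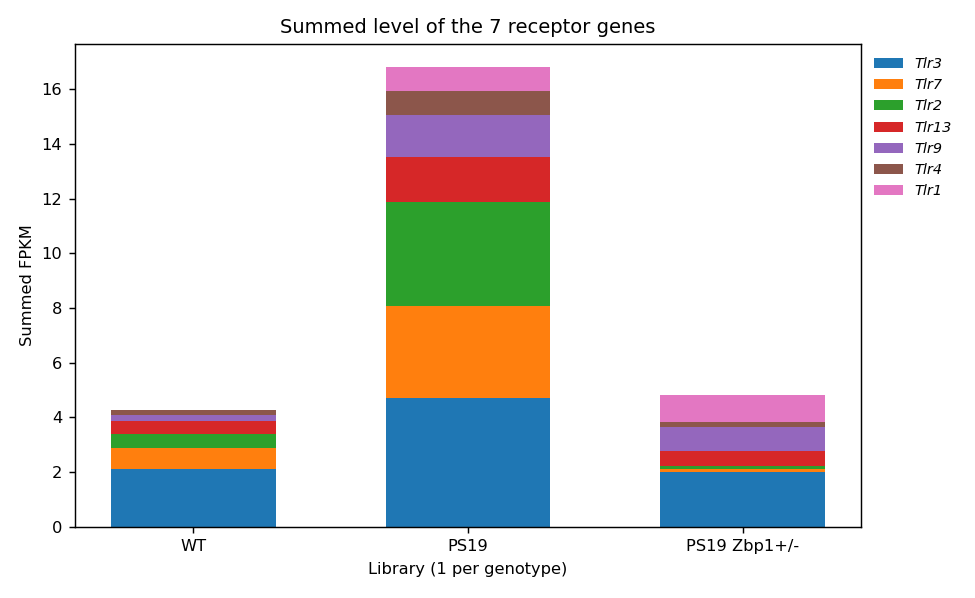
Summed FPKM of the 7 receptors in each library (1 per genotype), stacked by gene from Tlr3 at the bottom to Tlr1 at the top. The sums are 4.28, 16.8 and 4.82 from left to right, and the Tlr1 and Tlr9 segments take more of the last bar than of the first.

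The order of levels per length, read over all 10 genes, was led by Cd14, Myd88 and Tlr3 in WT, whose counting intervals overlap, and Tlr3 was clear of Tlr7 below it. From Tlr7 through Ly96, Tlr2, Tlr13 and Tlr9 to Tlr4, neighbours overlapped, and Tlr1 was clear below Tlr4. In PS19 Cd14 was clear above Tlr3, and neighbours overlapped along Tlr3, Tlr2, Tlr7 and Myd88, although Tlr3 was clear of Tlr7 and Myd88. Myd88 was clear of Tlr13, below which neighbours overlapped down to Tlr1. In PS19 Zbp1+/- the neighbours from Tlr3 through Cd14, Ly96, Tlr1, Myd88 and Tlr9 to Tlr13 overlapped, and Tlr13 was clear of Tlr4, Tlr7 and Tlr2 at the bottom.

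Of the other mouse receptors, none reached an FPKM of 1 in any library. Tlr12, a receptor for profilin, had 8, 36 and 25 reads. Its ratios to WT were 4.49 (2.05 to 11.2) for PS19 and 3.41 (1.49 to 8.74) for PS19 Zbp1+/-. PS19 was the highest library for Tlr12, as for Tlr9, while Tlr6 had FPKM values of 0.0778, 0.264 and 0.305. The counting intervals of PS19 and PS19 Zbp1+/- overlapped for both Tlr12 and Tlr6. Tlr5, the flagellin receptor, had 2, 11 and 3 reads, and Tlr8 had 1, 5 and 0. Tlr11 had 0 reads in each library, which allows FPKM values of up to 0.0531, 0.053 and 0.0579 at a limit of 3 reads, and up to 0.0653, 0.0652 and 0.0712 by the exact 95% Poisson interval.

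Some genes that carry and help the receptors were also high in PS19. By read ratio 4 of 17 trafficking and accessory genes were called higher in PS19 than in WT and none lower, with a list median of 0.41 in log2 units. Unc93b1, which escorts the nucleic acid receptors to endosomes, had 211, 719 and 201 reads. Ctss, a lysosomal protease that cleaves the endosomal receptors, had FPKM values of 36.2, 175 and 25.5. Cd180 and Ly86 encode a TLR4-like receptor of myeloid cells and its MD-2-like partner. Ly86 had 121, 578 and 142 reads. Cd180 had 25, 168 and 62, and stood 2.7-fold above WT in PS19 Zbp1+/- (1.67 to 4.49).

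Of 21 adaptors and kinases, 5 were at least 2-fold higher in PS19 by read ratio and none lower, with a median of 0.20. For both lists the share over all genes called higher was 6.02%. Pik3ap1, an adaptor that links the receptors to phosphoinositide kinase, was the only 1 of 18 called by log2(FPKM + 1), at 44, 148 and 26 reads. Tirap, which bridges MyD88 to TLR2 and TLR4, had 37, 86 and 45 reads. Ticam1, the TLR3 adaptor TRIF, had 98, 136 and 101, and its PS19 to WT ratio was 1.38 (1.06 to 1.81). Irak1, a kinase that acts after MyD88, had a ratio of 1.29 (1.18 to 1.41).

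Among the transcription factors, 5 of 13 were at least 2-fold higher in PS19 than in WT by read ratio, against 6.02% of all genes. These were Nfkb2, Irf5, Irf7, Irf8 and Atf3. In PS19 Zbp1+/- 8 stood 2-fold or more below PS19, against 12.6% of all genes. Irf7, which drives interferon genes after TLR7 and TLR9, had 46, 236 and 31 reads. Irf8, a myeloid lineage factor, had 98, 487 and 124, and Irf5 had 67, 208 and 68. Atf3 had 27, 88 and 12. The inhibitors had a median log2 read ratio of 0.00 for PS19 to WT over 14 genes. Of these, 1 was at least 2-fold higher, beside 6.02% of all genes: Socs3, at 31, 123 and 36 reads. Dusp1, a phosphatase of stress kinases, was lower in PS19, with a ratio of 0.687 (0.606 to 0.778). Nfkbia, the NF-kB inhibitor and itself an NF-kB target, had 524, 645 and 241 reads, and Nfkbie had 50, 79 and 67.

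Several response genes at the end of the pathway were also high in PS19. Of 22, 9 had at least 20 reads in WT and PS19 together. Of these, 7 were at least 2-fold higher in PS19, against 6.02% of all genes. The median of the 9 was 2.63. A gene at few reads in WT enters only if it is high in PS19, so the median describes those 9. Cxcl10 had 13, 186 and 4 reads. The chemokine Ccl3 had 2, 51 and 3, Ccl4 had 3, 33 and 0, and Ccl5 had 0, 39 and 0. All 3 chemokines had 3 reads or fewer in both WT and PS19 Zbp1+/-. With the counts of 0 set to a floor of 3 reads per library, Ccl5 was at least 13-fold higher in PS19 than in WT, and PS19 Zbp1+/- was at least 11.9-fold lower than PS19. The exact 95% intervals reach nearer to 1, to ratios of 10.1 and 0.108. The classical cytokines were scarce throughout: Tnf had 0, 5 and 0 reads, Il6 had 1, 5 and 0, Il1b had 3, 16 and 1, and Ifnb1 had none. In the interleukin-1 receptor family most members, but not all, have a TIR domain, and several signal through MyD88. By read ratio 2 of its 7 genes tested were higher in PS19 than in WT, against 6.02% of all genes. These were Il1rl1 (5, 17 and 0 reads) and Il1rl2 (8, 36 and 11). The 1 lower gene was Il1rapl2 (36, 17 and 27), against 1.6% of all genes. Il1r1, with 292, 415 and 132 reads, and Il1rap, with 964, 1197 and 538, were not called between PS19 and WT.

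**Figure D4:**
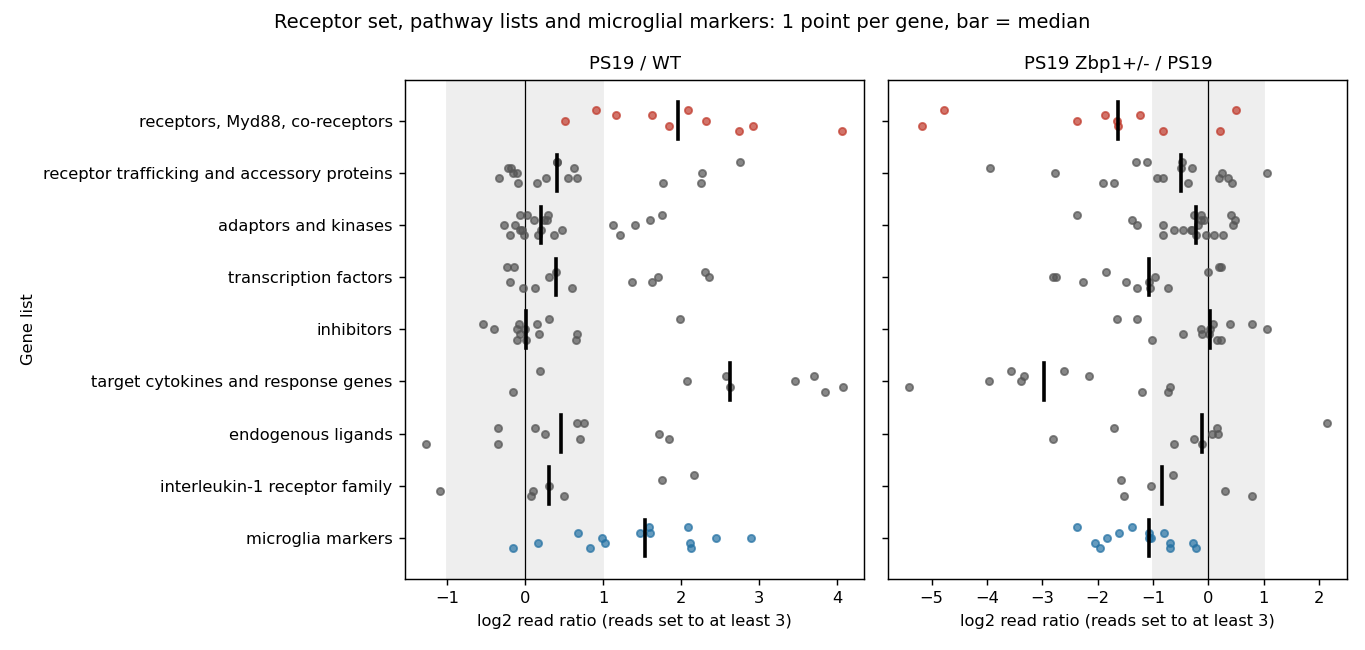
Log2 read ratios (reads set to at least 3) of the 10 genes (red), 7 pathway lists (grey) and 14 microglial markers (blue), for PS19 over WT (left) and PS19 Zbp1+/- over PS19 (right); 1 point per gene with at least 20 reads in the 2 libraries, black bars are medians and the grey band is within 2-fold. The medians on the left are 1.97 for the 10 genes, 0.20 for adaptors and kinases and 1.53 for microglial markers.

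Most markers of microglia, but not all, were higher in PS19 than in WT, as the receptors were. The 14 microglial markers all had reads in each library, and their summed FPKM was 196, 678 and 213. By read ratio 9 of 14 were at least 2-fold higher in PS19 than in WT, against 6.02% of all genes. Those not called were P2ry12, at a ratio of 0.904 (0.794 to 1.03), Tmem119, at 1.13 (0.99 to 1.28), Sall1, Gpr34 and Olfml3. The median of the 14 was 1.53 in log2 units, and the median of PS19 Zbp1+/- to WT was 0.09. Csf1r, the receptor microglia need to survive, had a PS19 Zbp1+/- to WT ratio of 1.3 (1.22 to 1.4), Cx3cr1 one of 2.64 (2.31 to 3.02) and P2ry12 one of 0.776 (0.675 to 0.893). The lowest of the 14 was 0.551, that of Gpr34. Tlr2 at 0.21 and Tlr7 at 0.156 lay below all 14, Tlr1 at 57.8 and Tlr9 at 3.82 above all 14, the highest of which was Fcrls at 3.52. The intervals of Tlr9 (2.07 to 7.48) and Fcrls (2.88 to 4.32) overlap. The upper end of the Tlr2 interval given above also lies just past the Gpr34 ratio. In whole tissue, fewer cells of a type and less RNA per cell cannot be told apart, and the part of microglial content in the receptor values was not tested.

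Markers of other cells were also read. The 8 border macrophage markers summed to FPKM values of 3.62, 4.67 and 0.529, and Pf4, Ms4a7 and Clec12a had no read in PS19 Zbp1+/-. All 5 of these markers with at least 20 reads in WT and PS19 Zbp1+/- together stood 2-fold or more below WT in the latter, as Tlr2, Tlr7 and Myd88 did, against 7.27% of all genes. These 5 had 19 to 80 reads in WT and 3 to 13 in PS19 Zbp1+/-, so they passed the read minimum through WT. The 11 monocyte and neutrophil markers summed to 1.8, 5.99 and 1.14. Of these, Ly6g and Cxcr2 had 0 reads in every library, and Ccr2 and Ly6c2 had 0 in PS19 Zbp1+/-. Mpo (7, 0 and 15 reads) and Camp (0, 1 and 6) were highest there. The 10 T, NK and B cell markers summed to 1.05, 2.47 and 2.14, with 7 at 0 reads in PS19 Zbp1+/-. The others, Cd4 (5, 10 and 17), Trac (3, 12 and 20) and Cd79a (6, 1 and 12), were highest there. Cd4 and Trac were at least 2-fold above WT there by read ratio, against 3.5% of all genes. Both passed the read minimum through PS19 Zbp1+/-. Astrocyte markers summed to 384, 1209 and 415, highest in PS19, as all of the 10 genes but Tlr1 and Ly96 were. Of 8 astrocyte markers, 2 (Gfap and Aqp4) were at least 2-fold above WT in PS19 by read ratio, against 6.02% of all genes. Gfap alone had FPKM values of 98.4, 768 and 112, and the other 7 summed to 285, 441 and 303. The 8 oligodendrocyte markers summed to 851, 1520 and 553, and all 8 stood 2-fold or more below PS19 in PS19 Zbp1+/-, against 12.6% of all genes. Whether any of these cells contributed to the receptor values was not tested.

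The genes nearest the median pattern of the set were sought by the distance between centred log2 reads per library size over the 3 libraries. The reference was the median profile of the 9 genes with at least 50 reads, with values of -0.47, 1.19 and -0.69. This reference came from the genes themselves, so their distances to it are a description. Cd14 was the nearest of the 10 at a distance of 0.023, and Tlr1 the farthest at 4.37. Tlr13, Tlr3, Tlr4 and Myd88 lay at 0.309 to 0.857, and Tlr9, Ly96, Tlr7 and Tlr2 at 1.527 to 2.349. Genes near the reference thus resemble Cd14 and not every gene of the set. Of 13950 other protein-coding genes, 49 lay within 0.25, and among the nearest were Grid2ip (59, 189 and 44 reads), Gcnt1, Plaur and Dok1, at distances of 0.071 to 0.081. With 3 libraries this likeness rests on 3 values per gene.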

How the data were processed

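Total hippocampal RNA was extracted with TRIzol and made into libraries with an NEB Next Ultra RNA kit, per the labels' protocols. Trim Galore 0.6.5, STAR 2.5.3a, featureCounts 2.0.4 and the build mm39 are named, with no role, per the submitters' processing notes. The authors deposited 1 table of FPKM values with the length of each gene. Its gene positions are those of GRCm38 (98.3% of 54409 gene IDs found in GENCODE M21, and 9 of the 10 genes here), not mm39, and are given as deposited. FPKM multiplied by length was a whole multiple of 1 step, within 0.01 reads, for 100% of the values of each library, which gave whole reads and implied library sizes of 17253479 (WT), 17287957 (PS19) and 15826984 (PS19 Zbp1+/-). No count model was fitted, since each genotype has 1 library.

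Differences were taken as log2(FPKM + 1), and as read ratios with exact intervals. The 10 genes, the 8 pathway lists and the 9 marker lists were chosen with earlier results of these data known. Named genes were the 10, the other Toll-like receptors, the 4 genes per list with the largest PS19 minus WT difference, the 5 nearest in pattern (1 of them is not reported here), the microglial markers and Zbp1, Xist and Ddx3y; others were named after their values were seen, as were the read windows for low counts and the motifs. Near-identical transcripts were sought with BLAST 2.17.0 (at least 90% identity over 100 bases). The procedure was tested on simulated data. Alternatives were other pseudocounts, filters, scalings, thresholds and biotypes. Python 3.11.15, pandas 2.3.3 and scipy 1.17.1 were used.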

Additional observations from a re-analysis of the deposited data

How the results depend on the processing

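No paired analysis was possible because each genotype has 1 library. By log2(FPKM + 1), 4 of the 7 genes tested were at least 2-fold higher in PS19 than in WT as reported, against 2.2% of all genes. At a 4-fold threshold the count was 0 of 7, against 0.291%. By read ratio it was 8 of 10, against 6.02%, and the median was 1.97 in place of 1.06. The number at least 2-fold below PS19 in PS19 Zbp1+/- was 4 of 9 as reported, against 5.16% of all genes. It was 1 of 9 at a 4-fold threshold, against 0.814%, and 7 of 10 by read ratio, against 12.6%. The median there, -0.92, was -1.47 with a pseudocount of 0.1, -1.17 after scaling to TPM, -1.10 after scaling by total reads and -1.64 by read ratio. Between PS19 Zbp1+/- and WT, 0 of 5 genes tested were higher and 0 lower as reported, against 1.07% and 2.28% of all genes. The higher count was 2 with a pseudocount of 0.1, 1 with 0.5, 2 at a 1.5-fold threshold and 3 by read ratio. The lower count was 1, 0, 1 and 3 in the same order. The read ratio took in all 10 genes and the other settings 5. Over all genes the shares were 2.33%, 1.55%, 6.71% and 3.5% higher, and 4.37%, 3.22%, 7.12% and 7.27% lower. The pseudocount of 1 compresses genes below an FPKM of 1, which most of the 10 are in WT. Over all protein-coding genes, 280 were higher in PS19 than in WT by log2(FPKM + 1) and 882 by read ratio. No gene of the 10 reached a mean FPKM of 5, so that filter gave no value. Scaling to TPM moved the median gene by 0.143 in PS19 and -0.143 in PS19 Zbp1+/- (log2), and of the 10 genes' ratios in the 3 comparisons it turned only that of Tlr1 between these libraries, from 1.16 to 0.95. Scaling by total reads moved the median gene of PS19 Zbp1+/- by -0.112. In WT 3 reads correspond to an FPKM of 0.0313 for Tlr4 and 0.17 for Ly96, which limits what can be seen of the weakest genes.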

Other observations

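Genes for endogenous or serum ligands of these receptors had several orders of libraries. Lbp, which carries lipopolysaccharide to CD14, had 548, 470 and 28 reads (WT, PS19, PS19 Zbp1+/-, the order used throughout), with a PS19 Zbp1+/- to WT ratio of 0.0557 (0.0367 to 0.0814). The summed FPKM of the choroid plexus markers was 3152, 1922 and 11.8, and their part in the Lbp value was not tested. Dcn, a matrix proteoglycan that can engage TLR2 and TLR4, had 1140, 474 and 1910 reads, with PS19 the low library. Bgn, its relative, had 393, 625 and 176, highest in PS19 and lowest in PS19 Zbp1+/-, as Tlr2, Tlr7 and Myd88 were. Fn1 had 740, 1244 and 1269, above WT in both PS19 libraries. S100a8 and S100a9, ligands of TLR4 from myeloid cells, had 5, 18 and 0 and 7, 23 and 3 reads, the same order as Bgn. Hmgb1, a nuclear protein that engages receptors when released, had 1060, 834 and 709.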
